A study of Drosophila melanogaster with 2 samples.

Results

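The insulin and adipokinetic hormone genes described here are 10 genes of Drosophila melanogaster, chosen by name but with earlier results of these data known. They are the ligand Ilp6, the secreted binding protein ImpL2, the receptor InR, the adaptor chico, and the kinases Akt and Tor. The others are the transcription factor foxo, the nutrient-responsive targets Thor and tobi, and the adipokinetic hormone receptor AkhR. Probe names carry a CG number and a transcript suffix, and through these numbers the 10 genes matched 11 probes of the 14593 on the arrays, which represented 13137 genes in all; Akt had 2 probes and each other gene 1. Tor is listed as mTor in the reference gene table. The arrays compared RNA of whole female larvae of the last larval instar. Ablated larvae (rnGAL4,UASegr,tubGAL80[ts]/+) carried the transgene of eiger, the fly's death-inducing tumour necrosis factor, under the rotund driver, which is active in the wing disc pouch, and spent 24 h at 30 °C. Control larvae (TM6,Tb[1],tubGAL80) were kept at the same temperature and lacked the driver and eiger transgenes, and they differ from the ablated larvae also by the balancer chromosome with its Tubby marker; both genotypes carry a GAL80 transgene. Each of 2 two-colour arrays set 1 ablated RNA against 1 control RNA, with ablated RNA in Cy5 on replicate 1 and in Cy3 on replicate 2. The titles give day 6, and no label says whether separate cultures were used; p-values therefore reflect the spread of these samples alone, which may be technical.

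In insects, insulin-like peptides released by the brain and by the fat body, the organ that combines tasks of liver and adipose tissue, bind the insulin receptor and start a kinase cascade. Through Akt this cascade keeps the transcription factor foxo out of the nucleus and, together with amino acid supply, drives the growth kinase Tor. When nutrients are short, foxo turns on genes such as Thor and InR. Adipokinetic hormone acts like glucagon in this system: released by neurosecretory cells of the corpora cardiaca, it binds a receptor on the fat body and mobilises stored lipid and sugar. The comparison asked which transcripts respond across the body to injury of 1 larval tissue.

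Most of these genes were at the limit of what the arrays measured. A spot was counted as above background when its median pixel exceeded the local background median by 2 SD of that background. In ablated larvae 3 of 11 probes passed on replicate 1 and 2 on replicate 2, and in control larvae 1 probe passed on each array. By gene, 4 of 10 were above background in at least 1 of the 4 channels (chico, Thor, tobi and AkhR), 1 of 10 on each array, and 1 of 10 in all 4 channels, in both cases chico. Over all 13137 genes the shares by these 3 criteria were 45.5%, 16.3% and 9.07%, so the 10 genes were not set apart by their detection. The 418 empty spots give a second measure of background: the 95th percentile of their net signal (spot median minus local background median, in scanner units) was 32 in the ablated and 25.2 in the control channel of replicate 1, against 40.5 and 42.3 on replicate 2. Above that percentile lay 5 of 11 probes in ablated larvae on either array, and in control larvae 7 of 11 on replicate 1 and 5 of 11 on replicate 2. The shares of all gene spots were 59.4% in ablated and 73.2% in control larvae on replicate 1, and 39.9% and 38.1% on replicate 2. No member spot held saturated pixels.

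**Figure D1:**
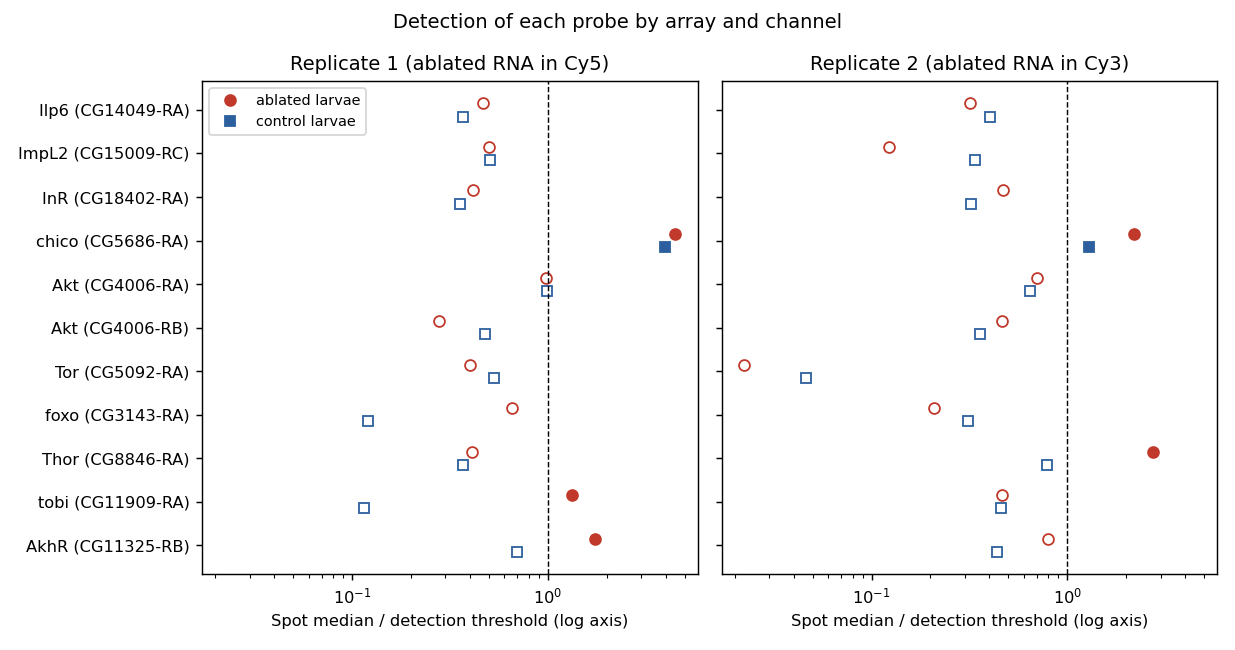
Median pixel of each probe's spot divided by its detection threshold (local background median plus 2 SD), on a log axis, for replicate 1 (left) and replicate 2 (right). Red circles are ablated and blue squares control larvae, filled where the spot is above background; chico is above the threshold in all 4 channels, Akt lies just below it on replicate 1, and Ilp6, ImpL2, InR, Tor and foxo lie below it throughout.

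Of the 5971 genes above background in at least 1 channel, 0 had an adjusted p under 0.05 in limma (Benjamini-Hochberg), which is a share of 0%, and so 0 of the 4 insulin and adipokinetic hormone genes tested were called (adjusted p = 0.996 for each). At an unadjusted p under 0.05 stood 144 genes (2.41%), AkhR among them. AkhR, Thor and tobi were each above background in 1 ablated channel and in no control channel. The filter thus admitted these genes through the ablated side alone, and the unadjusted p of AkhR is no support for a difference. Of the 4 genes, 1 was higher on both arrays (24.5% of all tested genes), 1 was lower on both (22.4%) and 2 had opposite signs (53.2%). The 2 arrays, which swap the dyes, opposed each other over the tested genes (Pearson's r = -0.53 and Spearman's rho = -0.23 across 5971 genes, no independent replicates of each other). This leaves the direction of single genes unsettled, although the labels state the dyes. The values below keep the labelled dyes, and the mean of each of the 4 genes is also given with the sign of replicate 2 turned. Errors are SD over the 2 arrays.

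AkhR, the receptor through which adipokinetic hormone acts on the fat body, had the largest mean difference of the 4 genes with the dyes as labelled; with the sign of replicate 2 turned, that of Thor was larger. Its net signal was 370 in ablated larvae and 117 in control larvae on replicate 1, and 414 in ablated larvae and 68 in control larvae on replicate 2. The ablated signal was thus the higher one on both arrays, in Cy5 on one and in Cy3 on the other. After background correction and loess normalization the log2 ratio of ablated over control larvae was 0.63 on replicate 1 and 1.12 on replicate 2, with a mean of 0.88 ± 0.35 (SD, n = 2; SE 0.24; unadjusted p = 0.0430, adjusted p = 0.996 in limma). Only the ablated spot of replicate 1 was above background, at 1.74 times its threshold; on replicate 2 the ablated spot reached 0.797 of it, and the control spots reached 0.694 on replicate 1 and 0.435 on replicate 2. All 4 spots lay above the 95th percentile of the empty spots. Control larvae were not above background on either array, nor ablated larvae on replicate 2, so the size of the ratio is uncertain. AkhR was tested only because of the ablated spot of replicate 1, so its unadjusted p is no support for a difference. The mean lay between 0.84 and 2.14 over 10 ways of processing with the labelled sign, with 1.86 after plain background subtraction and the highest value in the authors' deposited table. It was -0.24 ± 1.24 when the sign of replicate 2 was turned, so the direction of AkhR rests on the dye labels.

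Because AkhR is a fat body transcript, markers of that tissue are given beside it. The summed net signal of the 6 fat body markers (Lsp1alpha, Lsp1beta, Lsp1gamma, Lsp2, Fbp1 and Fbp2) was 26140 in ablated larvae and 22807 in control larvae on replicate 1, and 12810 in ablated larvae and 8516 in control larvae on replicate 2. Such sums, here and for the salivary gland below, are scanner values before normalization, from 2 dyes at unlike scanner gains. They do not by themselves give a direction. In normalized log2 ratios, 1 of these 6 fat body markers was higher on both arrays, 3 were lower on both and 2 had opposite signs. The median of their mean ratios was 0.0526, with -0.21 on replicate 1 and 0.14 on replicate 2. On replicate 1 the normalized median was thus negative although the summed signal was higher in ablated larvae. Between 3 and 5 of the 6 were above background in each channel, and as a list they did not share a direction. The 6 salivary gland markers were lower on both arrays for 5 of 6, with a median log2 ratio of -1.67 and none past the test; their summed net signal was 16279 in ablated larvae and 20437 in control larvae on replicate 1, and 2173 in ablated larvae and 10512 in control larvae on replicate 2. Of the testis markers 0 of 3 were above background in any channel, and of the haemocyte markers 1 of 3. Fewer cells of a type and less RNA per cell cannot be told apart in RNA of whole larvae, and the part of tissue makeup in the AkhR difference was not tested.

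The adaptor chico, the insulin receptor substrate that links InR to phosphoinositide 3-kinase, was the best measured of the 10 genes. Its net signal was 1870 in ablated larvae and 2014 in control larvae on replicate 1, against 859 in ablated larvae and 1075 in control larvae on replicate 2. The ablated signal was the lower one on both arrays, by little in scanner units. The log2 ratio was -0.74 on replicate 1 and -0.37 on replicate 2 (mean -0.55 ± 0.26, SD, n = 2; SE 0.22; unadjusted p = 0.0947, adjusted p = 0.996 in limma), which corresponds to 1.47-fold higher in the control larvae. The value on replicate 1 depends on normalization: in the authors' deposited table, which is not centred, chico read -0.11 on replicate 1 and -0.33 on replicate 2, where the medians of all gene values were 0.50 and -0.12. The mean lay between -0.65 and -0.22 over 10 ways of processing and was negative in each, although some of them could not change it. It was -0.18 with the sign of replicate 2 turned.

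**Figure D2:**
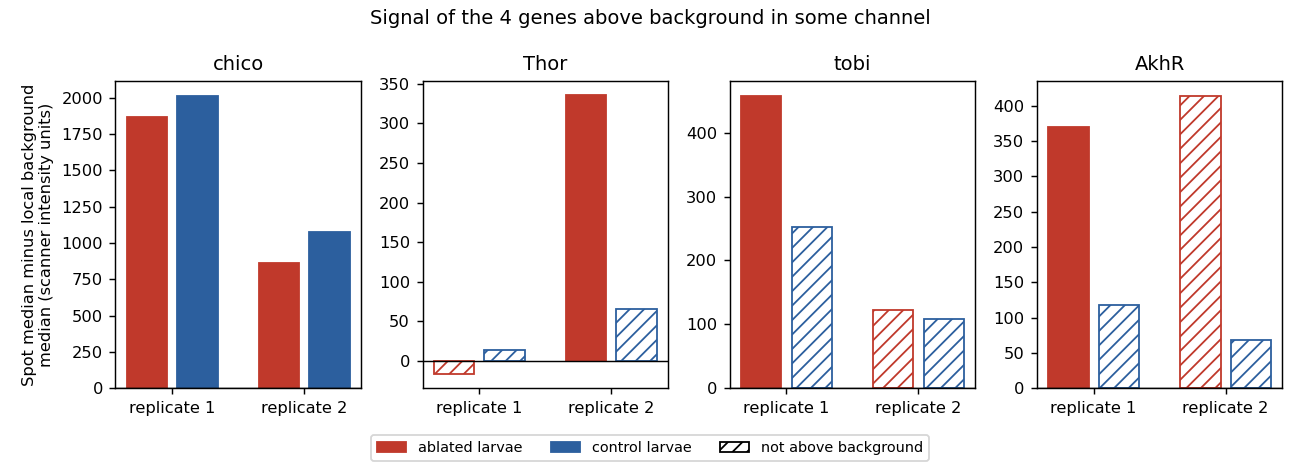
Net signal (spot median minus local background median, scanner intensity units) of chico, Thor, tobi and AkhR on each array, ablated larvae (red) left of control larvae (blue); hatched bars were not above background, and vertical scales differ between genes. AkhR is higher in ablated larvae on both arrays (370 and 414, against 117 and 68 in control larvae) and chico lower on both; for Thor only the ablated spot of replicate 2 is above background.

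Thor, the translation inhibitor 4E-BP and a standard readout of foxo activity, was seen on replicate 2 only. There the net signal was 336 in ablated larvae and 66 in control larvae, and the ablated spot stood at 2.73 times its threshold with 73% of its pixels more than 2 SD above background. On replicate 1 the net signal was -17 in ablated larvae and 13 in control larvae, both below the 95th percentile of the empty spots. The log2 ratio was -0.00286 on replicate 1 and 0.94 on replicate 2 (mean 0.47 ± 0.66, SD, n = 2; unadjusted p = 0.277, adjusted p = 0.996 in limma). The replicates therefore did not give the same answer, 1 of them having no measurable signal in either group. The control larvae were not above background on either array. The mean lay between 0.30 and 0.92 over 8 ways of processing, highest without background correction, and was -0.47 with the sign of replicate 2 turned.

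The target tobi, a glucosidase gene whose expression responds to dietary protein and sugar, differed by less than the spread between arrays. Its net signal was 458 in ablated larvae and 252 in control larvae on replicate 1, and 122 in ablated larvae and 109 in control larvae on replicate 2. The log2 ratio was 0.19 on replicate 1 and -0.00293 on replicate 2 (mean 0.0948 ± 0.14, SD, n = 2; unadjusted p = 0.664, adjusted p = 0.996 in limma). All 4 spots exceeded the empty spots' 95th percentile, but only the ablated spot of replicate 1 was above local background. Around the control spot of that array the background SD was 1766, which is 10.8 times the median of its channel, so its local threshold of 3707 says little about the spot itself. The mean lay between 0.0169 and 0.52 over 10 ways of processing, highest in the authors' deposited table, and was 0.0978 with the sign of replicate 2 turned.

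**Figure D3:**
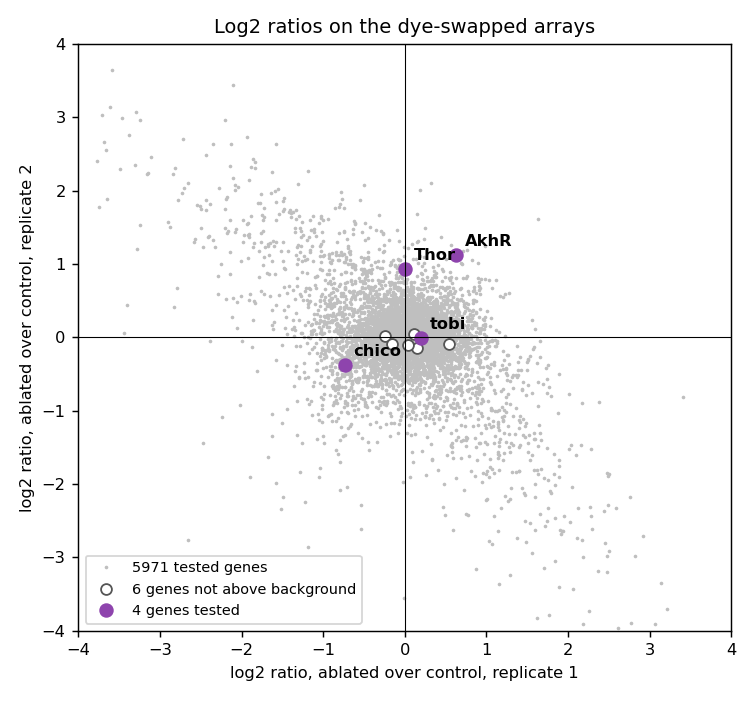
Log2 ratio of ablated over control larvae on replicate 1 (horizontal) and replicate 2 (vertical) for the 5971 tested genes (grey), the 4 tested insulin and adipokinetic hormone genes (purple) and the 6 not above background (open circles); 14 genes lie outside the axes. AkhR lies in the upper right quadrant and chico in the lower left, while the cloud of all genes runs from upper left to lower right (r = -0.53).

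The kinase Akt, which phosphorylates foxo, missed the threshold narrowly. Probe CG4006-RA had a net signal of 743 in ablated larvae and 585 in control larvae on replicate 1, where the spots reached 0.981 and 0.986 of their thresholds, and 74 in ablated larvae and 60.0 in control larvae on replicate 2. Each of these 4 spots lay above the empty spots' 95th percentile. Its log2 ratio was -0.24 on replicate 1 and 0.0148 on replicate 2 (mean -0.11 ± 0.18, SD, n = 2), a difference smaller than its spread. The sign on replicate 1 depends on normalization, since the ablated scanner signal was the higher one there. On that array Akt read 0.0181 after median centring and 0.344 in the authors' deposited table. The mean lay between -0.15 and 0.32 over 10 ways of processing, negative in 8 and positive in 2. The second probe, CG4006-RB, gave -28 in ablated larvae and 62 in control larvae on replicate 1, and 18 and 10.0 on replicate 2, so it adds no usable value.

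For foxo, the net signal on replicate 1 was 290 in ablated larvae and 101 in control larvae, both above the empty spots but below the local threshold. On replicate 2 it was -91 in ablated larvae and -97 in control larvae. The log2 ratios of 0.54 and -0.0877 (mean 0.23 ± 0.44, SD, n = 2) thus rest on 1 array with weak signal. The background SD around the control spot of replicate 1 was 1029, 6.31 times the median of its channel.

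Of the receptor, the ligand and the binding protein, the arrays measured nothing that can be compared. InR, the insulin receptor, had a net signal of -37 in ablated larvae and -17 in control larvae on replicate 1, and 30.0 and 10.0 on replicate 2. Ilp6, the insulin-like peptide made by the fat body, stood at -4 in ablated larvae and 1 in control larvae on replicate 1, and at -26 and -13 on replicate 2. For ImpL2, a secreted protein that binds insulin-like peptides and limits their action, the values were -1 in ablated larvae and 21 in control larvae on replicate 1, and -4 and 3 on replicate 2. None of the spots of these genes exceeded the 95th percentile of the empty spots, and their transcripts were not detectable at this signal, which does not show that they are absent.

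Tor, the kinase that couples nutrient supply to growth, was in the same range. Its net signal was -20.0 in ablated larvae and 35 in control larvae on replicate 1, where the control spot exceeded the empty spots' 95th percentile, and -89 and -93 on replicate 2. Around the spots of replicate 2 the background SD was 1921 (ablated) and 1256 (control), 13.2 and 7.66 times the medians of those channels. Of the log2 ratios, -0.16 and -0.0968, each thus involves at least 1 spot with a net signal below 0.

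Several values in the authors' deposited table for these genes come from such spots. For InR the authors' deposited table gives 1.14 on replicate 1 and 1.69 on replicate 2, more than 2-fold on both arrays. On replicate 1 both net signals were negative and the ablated one was the lower, although the deposited ratio is positive, and on replicate 2 the net signals were only 30.0 and 10.0 scanner units. Ilp6, Tor and foxo on replicate 2 also have values in the authors' deposited table (1.12, -0.048 and -0.077) from 2 channels below their background medians. Over all gene spots, 15.03% of the values in the authors' deposited table on replicate 1 and 44.99% on replicate 2 come from spots with both channels below their background medians. After normexp correction, which keeps every signal positive, InR read 0.11 on replicate 1 and 0.0488 on replicate 2. For AkhR the authors' deposited table gives 1.66 and 2.62, from net signals that were positive in all 4 channels.

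**Figure D4:**
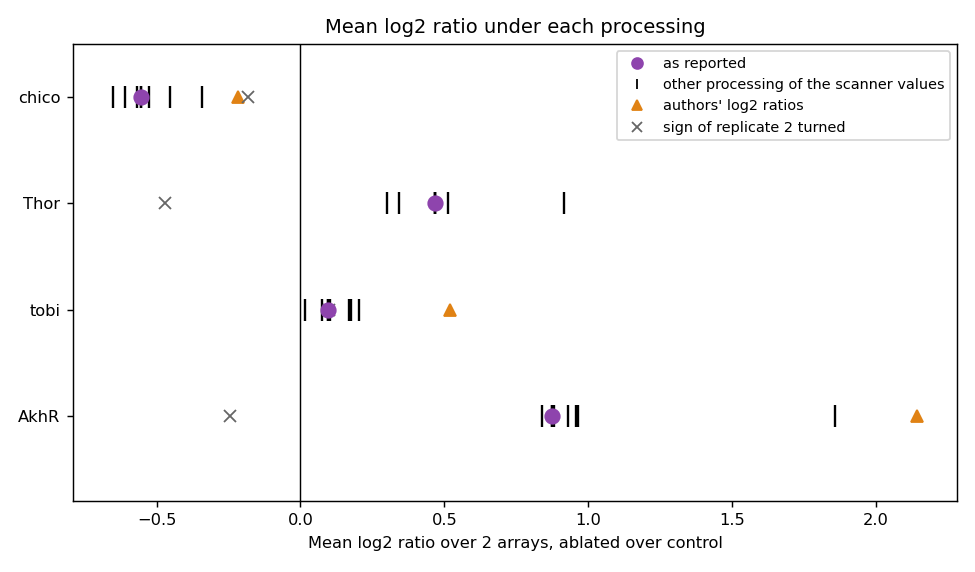
Mean log2 ratio over 2 arrays, ablated over control, for the 4 tested genes as reported (purple circles), under other processing of the scanner values (black ticks), in the authors' log2 ratios (orange triangles, where both arrays have a value) and with the sign of replicate 2 turned (grey crosses). AkhR ranges from 0.84 to 2.14 and chico from -0.65 to -0.22 with the labelled sign; with the sign turned AkhR is at -0.24 and Thor at -0.47.

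The rest of the pathways was examined through 78 further genes, of which 77 had a matched probe and 40 were above background in at least 1 channel. Of these 40, 0 passed the test (0% of all tested genes did), 9 were higher on both arrays, 10 were lower on both and 21 had opposite signs, close to the shares of all tested genes given above. Their median log2 ratio was 0.0431, against 0.00917 for all 5971. At least 2-fold the same way on both arrays was 1 gene, Gpdh1 (0.402% of all tested genes).

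Among the circulating ligands, Ilp5 was not analysed here, Ilp2 and Ilp3 were above background on replicate 1 only, in both groups, and Akh only in the ablated larvae of that array. Ilp2 and Ilp3 are insulin-like peptides of the brain's insulin-producing cells. Ilp2 read -0.11 on replicate 1 and 0.32 on replicate 2, and Ilp3 read 0.0246 and 0.10. Akh, adipokinetic hormone itself, read 0.0888 and 0.0914, with a net signal of 181 in ablated larvae and 128 in control larvae on replicate 1, and 12 and -14 on replicate 2. On replicate 2 both Akh spots lay below the 95th percentile of the empty spots. The ratio of Akh there does not measure a lack of change, and a contrast with its receptor was not tested. Ilp8, released by damaged discs, had a net signal of 14255 in ablated larvae and 4169 in control larvae on replicate 1, and 321 in ablated larvae and 768 in control larvae on replicate 2, where neither was above background. Its log2 ratios were 1.05 and -0.99, so the arrays disagreed on its direction. The genes of the design gave no check of the labels: in none of the 4 channels were egr or Tb above background, and rn read 0.34 and -0.95.

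Of the intracellular components and the receptors, none passed the test. Sirt1, Pi3K92E, Sik3, HDAC4 and CCHa2-R had the same sign on both arrays as labelled. They are given also with the mean after turning the sign of replicate 2 (turned mean). Sirt1, a protein deacetylase, read -0.73 and -0.90 (mean -0.81 ± 0.12, SD, n = 2; unadjusted p = 0.0310, adjusted p = 0.996 in limma), and its mean was 0.0840 with the sign of replicate 2 turned. Pi3K92E, the catalytic subunit of phosphoinositide 3-kinase, read -0.65 and -0.62 (mean -0.63 ± 0.0202, SD, n = 2), with a turned mean of -0.0143. Both were above background on replicate 1 only, in both groups. Of the 8 tested genes of insulin signal transduction other than the 10, 3 were higher on both arrays, 4 lower on both and 1 opposite. The shares of all tested genes were 24.5%, 22.4% and 53.2%. On the positive side stood Sik3, a kinase that acts on the deacetylase HDAC4, at 0.53 and 0.24, HDAC4 itself at 0.66 and 0.0207, and CCHa2-R, the receptor of a nutrient-dependent peptide, at 0.11 and 0.36. Their turned means were 0.15 for Sik3, 0.32 for HDAC4 and -0.13 for CCHa2-R. Sik3 was above background in the ablated larvae of replicate 1 alone for the probe tested. CCHa2-R was above background on replicate 2 only, in both groups. In the TOR branch 10 of 22 genes were tested, 2 higher on both arrays, 2 lower on both and 6 opposite, beside the same shares of all tested genes. Iml1, a subunit of the complex that restrains TOR when amino acids are short, read 1.67 and -1.80, with a mean of 1.73 once the sign of replicate 2 is turned. Iml1 and Ilp8 are the 2 pathway genes, of 40 tested, called when the sign of replicate 2 is turned. That reading called 515 of all 5971 tested genes, so the pathway genes did not stand out.

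Genes downstream of adipokinetic hormone did not share a direction. Of 9 tested, 1 was higher on both arrays, 3 were lower on both and 5 had opposite signs (24.5%, 22.4% and 53.2% of all tested genes). The higher one was bmm, the lipase that mobilises stored fat, at 0.0328 and 0.80 (mean 0.42 ± 0.54, SD, n = 2; turned mean -0.38), above background in all 4 channels with net signals of 2348 in ablated larvae and 1404 in control larvae on replicate 1, and 2564 in ablated larvae and 1264 in control larvae on replicate 2. The ratio of bmm on replicate 1 was near 0 after normalization although the scanner signals differed. Gpdh1, glycerol-3-phosphate dehydrogenase, read -2.66 and -2.77 (unadjusted p = 0.00135, adjusted p = 0.996 in limma), the lowest values as labelled. With the sign of replicate 2 turned its mean was 0.0529. The ablated spot of replicate 2 was not above background (net signal 2, against 1103 in control larvae), so the size of that ratio is uncertain, and the further probes of Gpdh1 averaged -0.72 and 0.14. None of the 4 tested nutrient-responsive targets beyond Thor and tobi had the same sign on both arrays, where 53.2% of all tested genes had opposite signs.

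**Figure D5:**
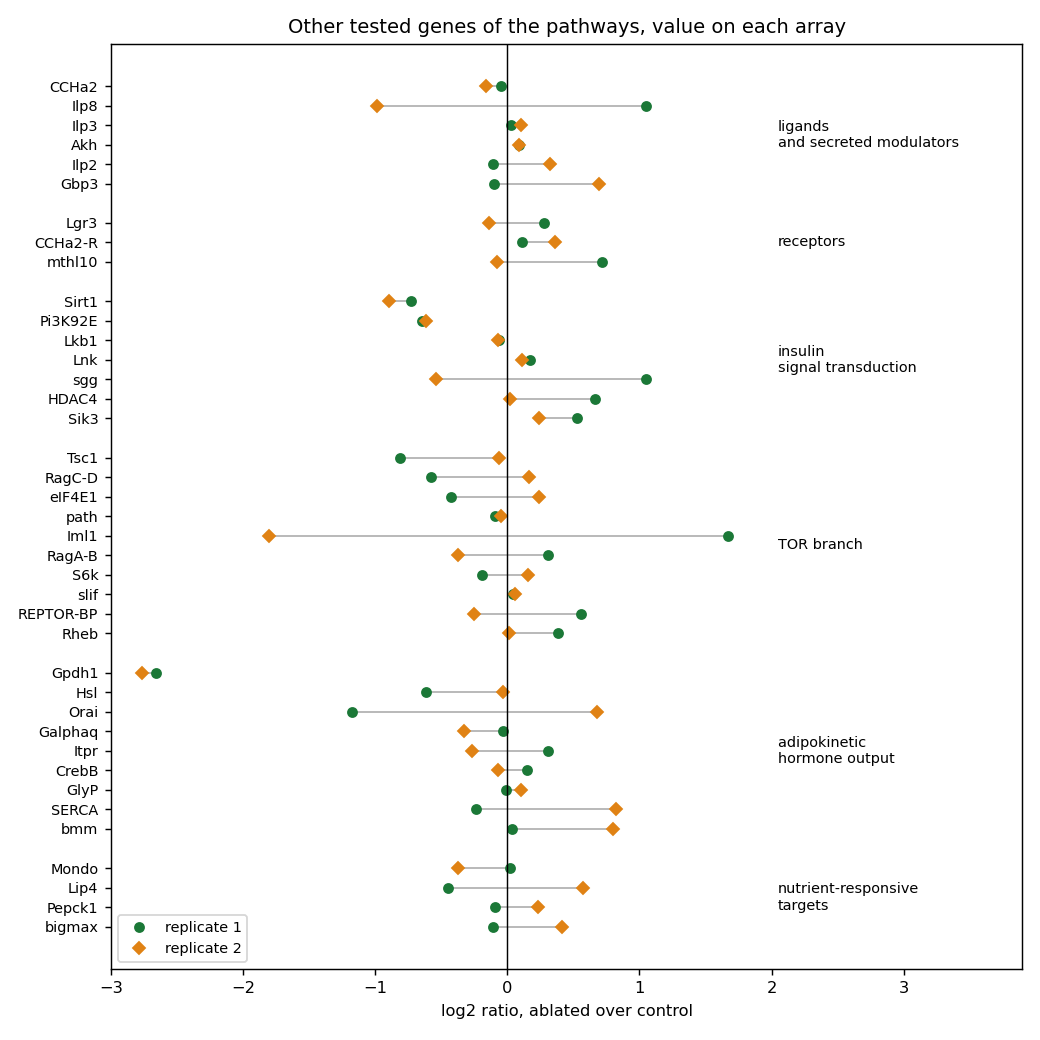
Log2 ratio of ablated over control larvae on replicate 1 (green circles) and replicate 2 (orange diamonds) for 39 of the 40 tested genes of the pathways other than the 10, grouped by role and ordered by mean; grey lines join the arrays. Of those plotted, 21 span 0, with Ilp8 and Iml1 the widest apart among ligands and in the TOR branch, and Gpdh1 lies lowest on both arrays with the dyes as labelled.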

How the data were processed

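Members and lists were chosen with earlier results of these data known. Per the file headers, arrays were scanned with GenePix Pro 7.1.25; the deposited values are spot and background intensity at 635 nm (Cy5) and 532 nm (Cy3), and the deposited percent values are shares of pixels. The authors also deposited log2 ratios, running as ablated over control on both arrays when set against scanner values (r = 0.999 and -0.997 with 635 over 532 nm); no source used here gives their further processing. The labels' protocols give the permissive temperature the other way round from the series design text, which was followed. Scanner gains were 540 (635 nm) and 600 (532 nm) on replicate 1, 630 and 540 on replicate 2.

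From the spot medians, limma 3.58.1 removed background by normexp with an offset of 50 and normalized each array's ratios by loess (R 4.3.3), non-gene spots having weight 0. Probes above background in no channel were left out, and the brightest remaining probe stood for a gene. Ratios were tested against 0 with lmFit and eBayes, two-sided, with Benjamini-Hochberg adjustment over 5971 genes. Tested on simulated data with the spread of these arrays, the fit returned the sizes put in but called some of only the largest changes. The simulated arrays were drawn independently of each other, whereas the real ones opposed each other. The simulation therefore does not show which changes the test could find here. Named genes are the 10, the classical ligands, Ilp8, the design genes and the 4 pathway genes with the largest same-sign means in each direction, of which 1 is not reported here. Probes were named through the RefSeq gene table (12687 by locus tag, 1218 by synonym; 688 kept the file's name). Arrays number 2, which limits precision. Alternatives changed the background correction, the normalization, the detection filter, the choice of probe, the sign of replicate 2 and the arrays used, and took the authors' ratios. Some of the counted ways of processing could not change a mean. Normalization between the arrays left the ratios of the 10 genes as reported, and averaging over probes did so for genes with 1 probe.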

Additional observations from a re-analysis of the deposited data

How the results depend on the processing

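The log2 ratios already pair ablated with control RNA on each array. No further pairing between arrays was possible because the labels put both arrays in a single group. With 1 array left out there is no residual spread and no test. Calls stayed at 0 of the genes tested, for all genes, the 10 genes and the pathway genes, under every alternative run except the turned sign of replicate 2. That reading called 515 of 5971 tested genes. Among them were 2 of the 40 tested pathway genes, Iml1 and Ilp8, and 0 of the 10 genes, of which 4 were tested. Genes at least 2-fold the same way on both arrays numbered 24 as reported, 96 with plain background subtraction, 15 with only genes above background on each array, 191 in the authors' values, 346 with the sign turned, and 634 to 644 on a single array. Of the 10 genes, 2 kept 1 sign on both arrays as reported, 4 without the filter (AkhR, chico, InR and Tor) and 1 with the stricter filter, which left only chico to test. The mean log2 ratio of AkhR was -0.24 and of Thor -0.47 with the sign turned. Single arrays gave 0.63 to 1.12 for AkhR, -0.74 to -0.37 for chico, -0.00286 (without replicate 2) to 0.94 for Thor and -0.00293 (without replicate 1) to 0.19 for tobi. Chosen after seeing the data were the mean of spot pixels and looser thresholds: Akt was also tested at 1.5 SD, and Akt and foxo at 1 SD or with the channel's median background SD, with 0 called. Median centring moved the median of all genes to 0.14 and the authors' values moved it to 0.31. Weak signal limits all of the 10 genes but chico: 6 were above background in no channel, and Thor, tobi and AkhR in 1 of 4 each.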
